A study of Mus musculus with 26 samples.

Results

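Eln, Mgp, Lum, Dcn and Vcan are 5 matrix genes of heart valves and great vessels, and they were followed here in the hearts of 13 mouse embryos at embryonic day 12.5, out of 6137 genes named on the arrays. Every probe set annotated to one of them alone on either array design was taken, which gave 9 of the 13179 probe sets. The 5 genes were picked from earlier results of these same hearts. Eln, Mgp, Lum and a Vcan probe set had stood out between hearts with low and high numbers, and Dcn and Vcan had been named from the comparison of null with wild-type hearts. In the comparison that chose it, a gene's values are therefore a description, without a test.

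Elastin (Eln) is the core protein of the elastic fibres that let the aorta and other large arteries stretch and recoil. Matrix Gla protein (Mgp) is a small vitamin K-dependent protein that binds bone morphogenetic proteins and keeps arteries and cartilage from calcifying. Lumican (Lum) and decorin (Dcn) are small leucine-rich proteoglycans that bind collagen fibrils and regulate how they assemble. Versican (Vcan) is a large hyaluronan-binding proteoglycan of the cardiac jelly and endocardial cushions, the tissue from which the valves are shaped, and hearts without it do not form normal cushions.

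By the labels the mouse line lacks, in the null, the NK2-specific domain of Nkx2.5, a homeobox factor needed for heart development. Hearts 1, 2, 7, 9 and N1 were wild-type (n = 5). The heterozygous group was made up of 5, 6, 12 and N2 (n = 4), and the null group of 3, 4, 8 and N3 (n = 4). Total RNA of each entire heart was measured on an A array and a B array, and all groups share age and tissue. The labels used here give no sex, litter or meaning of the numbers, so p-values measure only the spread between these hearts. In whole-heart RNA, fewer cells of a type and less RNA per cell cannot be told apart, and no value can be placed in a valve or a vessel.

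The deposited values are intensities on a linear scale. A floor of 2 times the noise of each table's negative values, 887 on A and 1373 on B, was set before log2 was taken. Blank cells made up 62.5% to 81.3% of 3 A arrays (hearts 1, 6 and N2) and 71.4% to 80.6% of 3 B arrays (hearts 3, 9 and N1), so most of these probe sets have values in 10 hearts rather than 13. The defining genes of the tissue were present: 11 of the 11 heart muscle markers on the arrays passed the filter on dim probe sets. Of the valve mesenchyme factors, Twist1, Prrx2, Gata4 and Fgfr1 passed, while Msx1, Msx2, Snai1 and Prrx1 were above the floor in 0 hearts. Among smooth muscle markers Acta2, Tagln and Cnn1 passed, and Myh11 was above the floor in 0 hearts. The annotation used here names no Nkx2-5 probe set, so the targeted gene was not analysed here.

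Of the 9 probe sets, 6 had at least 4 arrays above the floor and at least 2 values in every genotype and were tested, and these 6 cover all 5 genes. Eln has a bright A probe set (aa152671_s_at) and a dim B probe set (above the floor in 2 of 10 hearts). Mgp has a bright B probe set and an A probe set that was below the floor in all 10 hearts (D18292_rc_f_at). Lum (AF013262_s_at, A) and Dcn (X53929_s_at, B) have 1 each. Vcan has 3 on the A array: d28599_s_at, above the floor in 8 of 10 hearts, D45889_g_at, above it in 10 of 10, and D45889_at, below it in 10 of 10. In this array family, names ending in _s_at or _f_at mark probe sets that can also match related transcripts, so a value need not come from 1 transcript. The mean over 10 hearts was 9783 for D45889_g_at and 339 for D45889_at, which share an entry. Whether D45889_g_at reads Vcan alone was not tested.

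Eln, Mgp, Lum and 1 Vcan probe set, which the comparison of heart numbers had picked, differed most with the number of the heart. Dcn and the brightest Vcan probe set did not. The labels number the hearts 1 to 6, 7 to 12, and N1 to N3 without saying what the numbers mean, and the comparison of hearts 7 to 12 and N (7 hearts) with hearts 1 to 6 (6 hearts) was chosen in an earlier look at these data. Each of the 3 number ranges holds every genotype. Eln, Mgp and Lum were 2.08 to 2.73 times higher in the later-numbered hearts, 1 of the Vcan probe sets was lower at 0.469 times, and Dcn and the brightest Vcan probe set overlapped between the ranges.

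**Figure D1:**
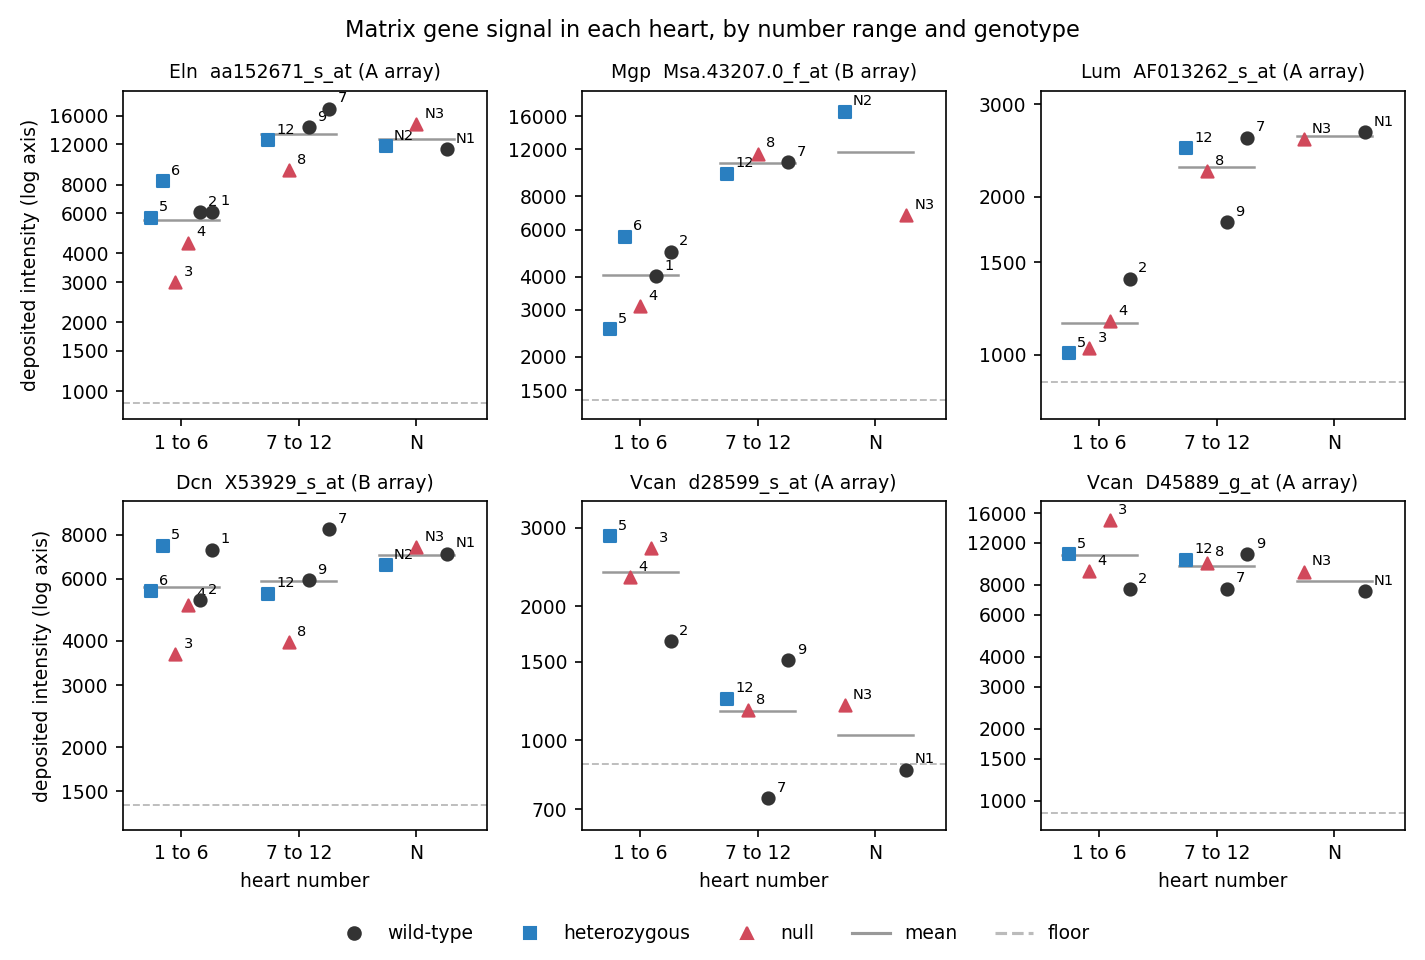
Deposited intensity (log axis) of the 6 tested probe sets in each heart, by number range; colour and marker give the genotype, the solid bar the mean of a range, the dashed line the floor, and the label the heart. In Eln, Mgp and Lum each heart of 7 to 12 and N lies above all hearts 1 to 6, while Dcn and Vcan D45889_g_at overlap.

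Eln intensity (aa152671_s_at) was 6086 and 6057 in wild-type hearts 1 and 2, 2987 and 4460 in null hearts 3 and 4, and 5730 and 8306 in heterozygous hearts 5 and 6. It was 17181 and 14314 in wild-type hearts 7 and 9, 9238 in null heart 8 and 12502 in heterozygous heart 12. The N hearts gave 11397 (wild-type N1), 11813 (heterozygous N2) and 14654 (null N3). All 7 later-numbered hearts thus lay above all 6 early ones. The means were 13014 ± 2592 (SD, n = 7) and 5604 ± 1784 (n = 6), 2.32 times apart, and the fitted log2 difference with genotype as a covariate was 1.23 ± 0.16 (SE). Within genotypes the log2 difference was 1.22 in wild-type, 0.82 in heterozygous and 1.67 in null hearts. Its direction there is fixed by the separation of early and later hearts and adds no support.

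Mgp intensity on the B array was blank in hearts 3, 9 and N1. The early hearts gave 4028 (heart 1), 4963 (2), 3105 (4), 2549 (5) and 5648 (6). The later ones gave 10763 (heart 7), 11561 (8), 9734 (12), 16622 (N2) and 6806 (N3). The groups did not overlap, although null heart N3 came close to heterozygous heart 6. Means were 11097 ± 3575 (SD, n = 5) and 4059 ± 1278 (n = 5), a ratio of 2.73, the widest of the 6 probe sets. The fitted log2 difference was 1.54 ± 0.25 (SE). Within genotypes it was 1.27 in wild-type (1 later and 2 early hearts), 1.75 in heterozygous (2 and 2) and 1.51 in null hearts (2 and 1). The separation fixes the direction here too.

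Lum was much dimmer, near the floor in the early hearts. Its intensity was 1396 in heart 2, 1030 in heart 3, 1158 in heart 4 and 1007 in heart 5, against 2591 in heart 7, 2239 in heart 8, 1790 in heart 9, 2470 in heart 12, 2653 in N1 and 2574 in N3; hearts 1, 6 and N2 were blank. Every later-numbered heart was above every early heart. The means were 2386 ± 327 (SD, n = 6) and 1148 ± 178 (n = 4), 2.08 times apart, with a fitted log2 difference of 1.03 ± 0.18 (SE). Within genotypes it was 0.73 in wild-type (3 later hearts and 1 early), 1.29 in heterozygous (1 and 1) and 1.14 in null hearts (2 and 2). As for Eln, the separation already fixes this direction.

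Dcn, which belongs to the same proteoglycan family as Lum and lies beside it on chromosome 10, did not follow it. Its intensity was 7256, 5216, 3667, 5075, 7446 and 5526 in hearts 1 to 6, and 8303, 3976, 5940 and 5447 in hearts 7, 8, 9 and 12. The N hearts N1, N2 and N3 gave 7071, 6552 and 7380. The early and later ranges overlapped, and their means were 5698 ± 1432 (SD, n = 6) and 6381 ± 1417 (n = 7). The fitted log2 difference was 0.14 ± 0.17 (SE).

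Vcan was measured above the floor by a dim and a bright probe set. In the dim one, d28599_s_at, intensity was 1669, 2695, 2328 and 2869 in hearts 2, 3, 4 and 5, and 741, 1169, 1512, 1241, 860 and 1198 in hearts 7, 8, 9, 12, N1 and N3. All 6 later hearts were below all 4 early ones, with means of 1120 ± 279 (SD, n = 6) and 2390 ± 531 (n = 4) and a fitted log2 difference of -0.97 ± 0.19 (SE). Hearts 7 and N1 were under the floor and were raised to it, so the log2 difference understates the gap in intensity for those 2 hearts. D45889_g_at, far brighter, gave 7698, 14968, 9161 and 10773 in hearts 2, 3, 4 and 5. It gave 7722, 9913, 10733, 10201, 7554 and 9103 in hearts 7, 8, 9, 12, N1 and N3. Here the ranges overlapped, with means of 9204 ± 1324 (n = 6) and 10650 ± 3141 (n = 4) and a log2 difference of -0.10 ± 0.16 (SE). The gap between the 2 probe sets was not tested, because this contrast chose d28599_s_at.

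Because this contrast chose Eln, Mgp, Lum and Vcan d28599_s_at, that these 4 of the 6 were among the probe sets called carries no test. Over all 4494 tested probe sets 7.14% were called in it (limma, adjusted p under 0.05), 174 higher and 147 lower. Complete separation upwards, seen in Eln, Mgp and Lum, occurred in 3.4% of all tested probe sets, and complete separation downwards, seen in 1 Vcan probe set, in 3.76%. These shares are printed as a background only, since the contrast chose the genes.

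The 3 N hearts were also compared with the 4 hearts numbered 7 to 12, a contrast from which no gene was picked. It is not independent of the choice, since a gap to hearts 1 to 6 stands out more where these 2 ranges agree. For Eln, Mgp, Lum and Vcan d28599_s_at, small differences here are therefore in part set by that choice. In none of the 6 tested probe sets did the limma fit call a difference, and 0% of the 4494 probe sets were called (434 had an unadjusted p under 0.05). The log2 difference was -0.01 ± 0.23 (SE) for Eln, 0.09 ± 0.37 for Mgp and 0.22 ± 0.24 for Lum. For Dcn it was 0.34 ± 0.21, for Vcan D45889_g_at -0.22 ± 0.21 and for Vcan d28599_s_at -0.17 ± 0.26. The adjusted p-values were 0.639 to 0.994. The mean Eln intensities of the 2 ranges were 12621 ± 1773 (SD, n = 3) and 13309 ± 3328 (n = 4). For Mgp they were 11714 ± 6941 (n = 2) and 10686 ± 916 (n = 3), so for Mgp the N range rests on hearts N2 and N3 alone. For Lum and Vcan it rests on hearts N1 and N3, because N2 was blank.

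Eln, Mgp and Vcan have more than 1 probe set, but of the second Eln and Mgp probe sets little or nothing was above the floor. The dim Eln probe set gave 2643 in heart 7 and 2924 in heart N3, the hearts that were highest on the bright one, and 642 to 1170 in the other 8 hearts, all below the floor of 1373. The A probe set of Mgp gave 2.9, -46.5, -4.2 and 27.6 in hearts 2, 3, 4 and 5, and 55.4 to 228.2 in the 6 later-numbered hearts. All of these lie within the noise of the table (443), so neither an order of hearts nor a fold is read from them. Agreement of the Eln and of the Mgp probe sets therefore could not be judged beyond hearts 7 and N3 for Eln.

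For Vcan the 2 probe sets above the floor ordered 34 of 45 pairs alike, and 18 of 21 pairs within a number class. Heart 3 was the highest on D45889_g_at and the second highest on d28599_s_at, and hearts 7 and N1 were the lowest on d28599_s_at and among the 3 lowest on D45889_g_at. D45889_at, annotated to the same transcript entry as D45889_g_at, gave only 184 to 477, below the floor, and was not ranked.

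**Figure D2:**
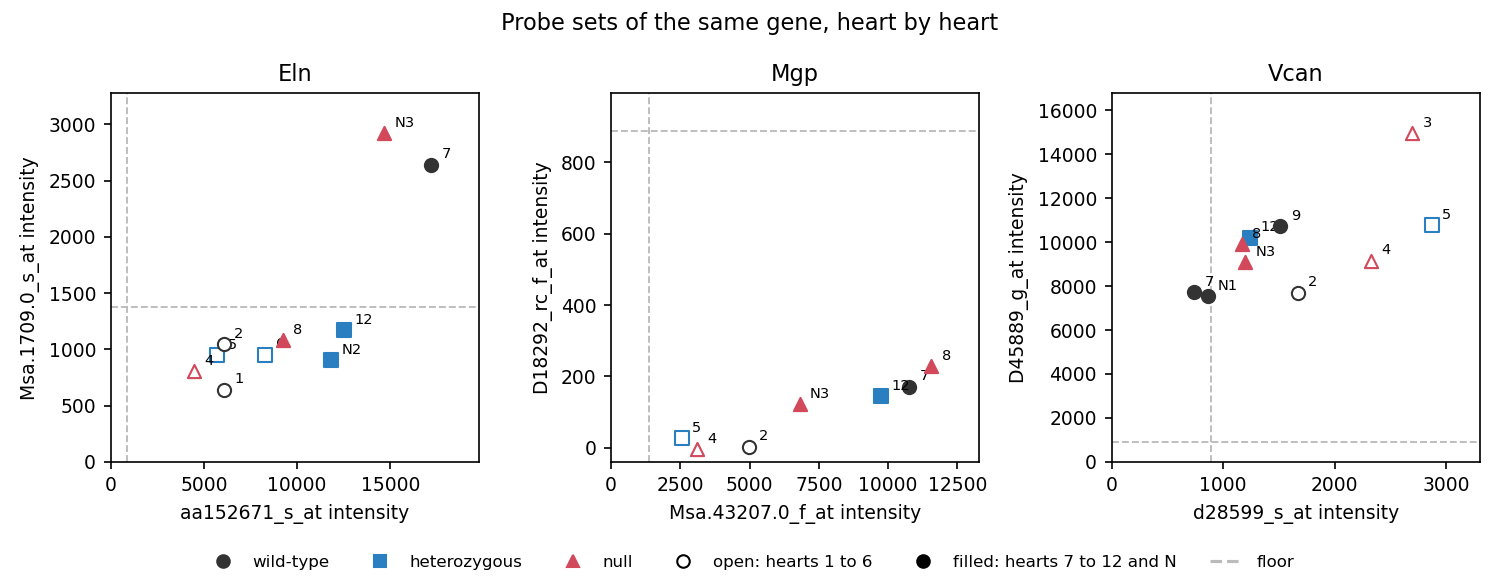
Intensity of 2 probe sets of Eln, Mgp and Vcan in the same heart (linear axes); marker and colour give the genotype, open symbols hearts 1 to 6 and filled ones hearts 7 to 12 and N, and dashed lines the floor of each table. Eln hearts 7 and N3 stand highest on both axes, all Mgp symbols lie below the floor of the A array, and Vcan open and filled symbols overlap on the D45889_g_at axis but not on the d28599_s_at axis.

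The genotypes were compared next, as the study's own question about the NK2-specific domain. Of the 6 matrix probe sets 0 were called in any of the 3 genotype comparisons (limma, Benjamini-Hochberg over 4494 probe sets). For Dcn and Vcan, which had been named from null against wild-type, that comparison is a description and not a test. Over the whole table the share called was 0.0223% for null against wild-type, 0% for heterozygous against wild-type and 0% for null against heterozygous. The probe sets with an unadjusted p under 0.05 numbered 108, 152 and 260.

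Eln intensity was 11007 ± 4948 (SD, n = 5) in wild-type, 9588 ± 3161 (n = 4) in heterozygous and 7835 ± 5271 (n = 4) in null hearts. The null hearts ranged from 2987 to 14654 and the wild-type hearts from 6057 to 17181, so they overlapped widely. Null minus wild-type came to -0.63 ± 0.41 (SE) on the log2 scale (limma, adjusted p = 0.9999). Within hearts 1 to 6 null minus wild-type was -0.73, within hearts 7 to 12 it was -0.76, and between N3 and N1 it was 0.36, the opposite direction. With the number range as a block the log2 difference was -0.50 ± 0.20 (SE), and its adjusted p was still 0.999 in limma (unadjusted 0.0239).

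Dcn had the same layout over the null hearts. Its intensity was 6757 ± 1202 (SD, n = 5) in wild-type, 6243 ± 947 (n = 4) in heterozygous and 5024 ± 1683 (n = 4) in null hearts. Null hearts 3 and 4 were the lowest of hearts 1 to 6, and null heart 8 was the lowest of hearts 7 to 12, for Dcn as for Eln. Null heart N3, in contrast, was the highest of the 3 N hearts in both genes. Null minus wild-type, a comparison from which Dcn had been named, was -0.46 ± 0.20 (SE) on the log2 scale. It was -0.51 within hearts 1 to 6, -0.82 within hearts 7 to 12 and 0.06 between N3 and N1. With the range as a block it was -0.48 ± 0.19.

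For Vcan the null and heterozygous averages were above the wild-type average on both tested probe sets, and single hearts overlapped. D45889_g_at averaged 8427 ± 1539 (SD, n = 4) in wild-type, 10487 ± 404 (n = 2) in heterozygous and 10786 ± 2812 (n = 4) in null hearts. Wild-type hearts 2, 7 and N1 gave 7554 to 7722, below every null and heterozygous heart (9103 to 14968), and wild-type heart 9 gave 10733. Null minus wild-type, a comparison from which Vcan, too, had been named, was 0.34 ± 0.18 (SE) on the log2 scale. It was 0.61 in hearts 1 to 6 (1 wild-type heart), 0.12 in hearts 7 to 12 (1 null heart) and 0.27 between N3 and N1. In hearts 7 to 12 the null heart (9913) lay between wild-type hearts 7 (7722) and 9 (10733). Heterozygous minus wild-type was 0.33 ± 0.22 (limma, adjusted p = 0.981). With the number range as a block the D45889_g_at differences were 0.33 ± 0.17 for null and 0.27 ± 0.21 for heterozygous hearts. On d28599_s_at the averages were 1195 ± 463 (n = 4), 2055 ± 1151 (n = 2) and 1848 ± 781 (n = 4), and the log2 differences from wild-type were 0.67 ± 0.43 for heterozygous and 0.54 ± 0.35 for null hearts. With the number range as a block these shrank to 0.40 ± 0.26 and 0.31 ± 0.21. In wild-type hearts only 2 of 4 values of that probe set were above the floor.

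Mgp averaged 6585 ± 3649 (SD, n = 3) in wild-type, 8638 ± 6082 (n = 4) in heterozygous and 7157 ± 4239 (n = 3) in null hearts, and the genotypes overlapped. Null minus wild-type was 0.06 ± 0.63 (SE) on the log2 scale, and with the number range as a block it turned to -0.47 ± 0.34. Lum averaged 2108 ± 616 (n = 4) in wild-type, 1739 ± 1035 (n = 2) in heterozygous and 1750 ± 772 (n = 4) in null hearts. Its null minus wild-type difference of -0.33 ± 0.36 shrank to -0.09 ± 0.20 with the block. Neither gene's genotypes differed beyond the spread of the hearts in limma (adjusted p 0.9999 for both).

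**Figure D3:**
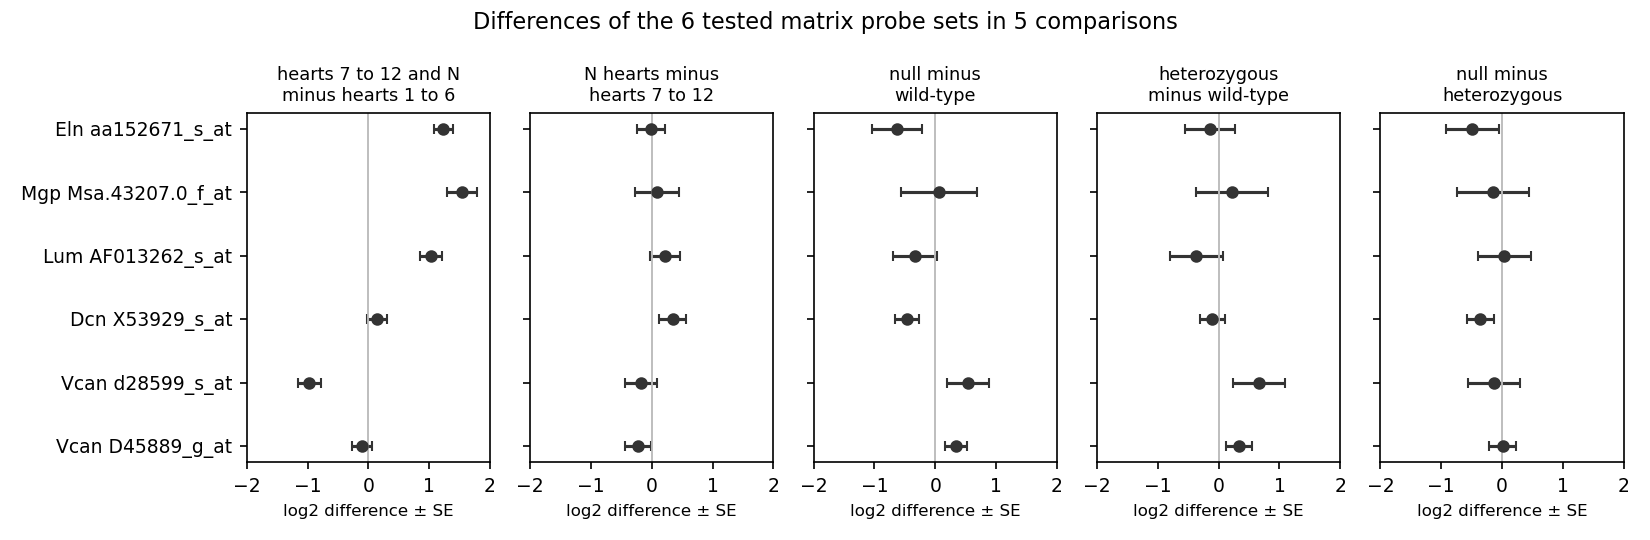
Fitted log2 difference ± standard error of the 6 tested probe sets in 5 comparisons (columns), with the vertical line at 0. In the first column, the one that chose 4 of them, Mgp, Eln and Lum lie between 1.03 and 1.54 and Vcan d28599_s_at at -0.97, whereas in the other 4 columns every value lies between -0.63 and 0.67 and none passed the adjusted threshold.

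Between null and heterozygous hearts the log2 differences were -0.49 ± 0.43 (SE) for Eln, -0.36 ± 0.22 for Dcn, -0.15 ± 0.59 for Mgp and 0.04 ± 0.44 for Lum. For Vcan they were 0.01 ± 0.22 (D45889_g_at) and -0.13 ± 0.43 (d28599_s_at). The adjusted p-values in limma were 0.839 to 0.997. The comparisons share hearts and are not independent of one another. Whether the null minus wild-type difference itself differed between hearts 7 to 12 and N and hearts 1 to 6 was tested as an interaction. It was 0.46 ± 0.37 for Eln, 0.13 ± 0.42 for Dcn, 0.25 ± 0.71 for Mgp, 0.41 ± 0.43 for Lum, -0.45 ± 0.39 for D45889_g_at and -0.43 ± 0.46 for d28599_s_at. None was called, with adjusted p-values of 0.999 in limma, and 0% of all probe sets were called (137 with an unadjusted p under 0.05).

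The Pearson correlation of log2 values, given as a description over 10 to 13 hearts, was 0.89 between Eln and Lum (n = 10), 0.80 between Eln and Mgp (n = 10) and 0.55 between Eln and Dcn (n = 13). Vcan D45889_g_at ran the other way, at -0.52 with Eln, -0.54 with Lum and -0.58 with Dcn (n = 10). Eln, Lum and Mgp had been chosen because they rose between the same ranges of hearts, so their high correlations are in part set by that choice. After the mean of each number range was subtracted, the order changed. Eln and Lum then stood at 0.28 and Eln and Mgp at 0.15, while Eln and Dcn stood at 0.75 and Lum and D45889_g_at at -0.72. The points share arrays and scaling, and probe sets on the same array are not independent.

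The genes whose values were most alike were not those of a single family. For Eln they were the chromobox gene Cbx6 (r = 0.91), Rbck1 (0.90) and Gata2 (0.90), out of 3982 probe sets compared; after removal of the range means they were Oaz2 (0.88), Dgcr6 (0.87) and the transcription factor Hes6 (0.85). For Mgp they were Serf1 (0.95), the actin-associated Synpo (0.93) and Txnl4a (0.93), out of 2358. For Lum they were Scamp1 (0.90), Tbc1d20 (0.89) and Phgdh (0.89), and without range means the actin-severing protein gelsolin, Gsn (0.94). Dcn was most like Dgcr6 (0.84), the collagen receptor Ddr1 (0.81) and Aopep (0.80). Vcan D45889_g_at was most like the proteasome activator Psme4 (0.93), Ptcd3 (0.87) and Cep350 (0.86).

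The partner genes of these proteins were counted from lists, with the brightest tested probe set of each gene. Between later-numbered and early hearts 4.79% of the 2733 tested genes were called higher and 1.68% lower, and the median log2 difference of all genes was 0.05. In the elastic fibre list, 9 of 19 genes were on the arrays and 6 were tested. Fbln1, which encodes fibulin 1, a glycoprotein of elastic fibres and basement membranes, rose from 3640 ± 918 (SD, n = 6) to 5467 ± 1323 (n = 7), with a log2 difference of 0.59 ± 0.14 (SE, adjusted p = 0.0221 in limma). The other 5 were not called. Fbln2 differed by 0.45 ± 0.14 and Lox, the enzyme that cross-links elastin and collagen, by 0.52 ± 0.18, and the list's median was 0.31. Lox averaged 721 ± 132 (n = 4) in the early hearts, under the floor.

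Of 20 fibrillar and associated collagen genes 14 were on the arrays and 11 were tested; 2 were higher, 0 lower, and the median was 0.36. Both encode chains of type VI collagen, a beaded-filament collagen that binds decorin. Col6a2 rose from 3364 ± 715 (SD, n = 6) to 5863 ± 962 (n = 7), without overlap, and Col6a1 from 2043 ± 280 to 3165 ± 628, also without overlap. Their log2 differences were 0.83 ± 0.14 (SE, adjusted p = 0.00691 in limma) and 0.63 ± 0.14 (0.0221). Pcolce, which enhances the processing of procollagen, differed by 0.51 ± 0.16 and was not called.

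Of the other leucine-rich proteoglycans on the arrays, biglycan (Bgn) alone of 6 passed the filter. It averaged 4924 ± 684 (SD, n = 4) in early and 6389 ± 599 (n = 6) in later hearts, a log2 difference of 0.39 ± 0.13 (SE) that did not pass (adjusted p = 0.0936 in limma). Kera, whose gene follows Lum and Dcn on chromosome 10, was above the floor in 0 hearts. Among 17 genes tied to Mgp, gamma-carboxylation and mineral, 12 were on the arrays and 4 were tested. Sparc, a collagen-binding matricellular protein, rose by 0.52 ± 0.15 (adjusted p = 0.0491). Bmp4, a bone morphogenetic protein, was not called at -0.27 ± 0.21, and the list's median was -0.02. Of the hyaluronan and versican partners 2 of 9 on the arrays were tested, Adamts1, a protease that cleaves versican, at 0.16 ± 0.18 and Hmmr at -0.01 ± 0.16, with 0 called. Has2 and Cd44, the enzyme that makes hyaluronan and a receptor for it, were above the floor in 0 hearts.

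Of 18 TGF-beta signalling genes 7 were tested and 0 were called; Smad4 differed by 0.54 ± 0.16 (SE, adjusted p = 0.0584 in limma). Of 15 valve mesenchyme factors 4 were tested and 1 was called, the homeobox gene Prrx2, which rose by 0.46 ± 0.12 (adjusted p = 0.0386). Twist1 and Fgfr1 differed by -0.18 ± 0.17 and 0.21 ± 0.24. The list's median was 0.04, but it was 0.18 under quantile scaling (5 genes tested) and -0.25 without the N hearts (3 genes tested), while the median of all genes was 0.03 in both.

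Some markers of other cell types were also called between the same ranges of hearts. Of 10 tested endothelial and endocardial markers 2 were higher, Eng by 0.81 ± 0.14 (SE, adjusted p = 0.00658 in limma) and Tie1 by 0.59 ± 0.12 (0.0116), 3 had negative values, among them Cd34 at -0.51 ± 0.18 (0.0971), and the median was 0.15. The summed intensity of the 4 such markers without blanks on the B array (Eng, Tie1, Icam2 and Kdr) was 16115 to 26978 in early and 26472 to 39398 in later hearts. Eng was the largest part of it, with means of 11301 and 19620. Icam2 changed little, from 3631 to 3873, and Kdr went the other way, from 2460 to 2159. Of 5 tested epicardial and fibroblast markers 1 was higher, Wt1, at 0.75 ± 0.15 (0.0114). Of 11 heart muscle markers 2 were lower, Tnnc1 at -0.65 ± 0.15 (0.0271) and Myl2, from 91694 ± 33448 (SD, n = 5) to 48745 ± 19398 (n = 7) in intensity (0.044), and 10 of 11 had negative values (median -0.32). Under cyclic loess 8 of 11 were negative, with a median of -0.06, and under quantile scaling 9 of 11, with a median of -0.16. The 3 heart muscle markers without blanks on the B array summed to 152093 to 293924 in early and 54674 to 245131 in later hearts. Actc1 was the largest part of that sum, with means of 134743 and 73503. Of 5 smooth muscle markers 0 were called, with Acta2 at -0.35 ± 0.18. The smooth muscle median of -0.31 turned to 0.08 under quantile scaling and 0.07 under cyclic loess. Of 3 tested skeletal muscle markers 2 had negative values and 1 was positive, with a median of -0.34. Myog, above the floor in 5 hearts, was the 1 called lower, at -0.88 ± 0.14 (SE, adjusted p = 0.00525 in limma). Ckm went the other way, from 6017 ± 1597 (SD, n = 5) to 9384 ± 3769 (n = 5) in intensity. Under quantile scaling Eng and Myog (-0.95) were the only 2 of the 12 called list genes that still passed. Most log2 differences kept their size there, with 1.40 for Alas2, 0.77 for Col6a2, 0.56 for Col6a1, 0.51 for Fbln1 and 0.54 for Tie1, while Myl2 shrank to -0.40. Prrx2 did not pass under cyclic loess (adjusted p = 0.0537), without the mostly blank arrays (0.126) or without the N hearts (0.0596). Without the N hearts Col6a1 (0.0552) and Sparc (0.131), and without the mostly blank arrays Fbln1 (0.112), Myl2 (0.107) and Tie1 (0.0755), did not pass either, nor did Tnnc1 under cyclic loess (0.114).

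Markers of cartilage, a tissue rich in Mgp and in leucine-rich proteoglycans, were mostly below the floor. Col2a1, Acan, Matn1, Col9a1 and Col9a3 were above the floor in 0 hearts, and the 2 tested, Col9a2 and Snorc, differed by -0.02 ± 0.11 and -0.25 ± 0.19. Of 9 lung and foregut markers on the arrays, Nkx2-1, Foxa1, Foxa2, Shh, Cdh1 and Epcam were above the floor in 0 hearts, Sftpc in 1 and Scgb1a1 in 2. Id2, which is not specific to these tissues, was above it in 10 and differed by -0.08 ± 0.14. Of 7 tested red cell markers Alas2 was higher at 1.29 ± 0.31 (SE, adjusted p = 0.0328 in limma), and the list's median was -0.20. Without the N hearts that median turned to 0.27, with 2 red cell markers called higher and 2 lower. The Gapdh 3′ to 5′ log2 ratio of the A arrays, a sign of RNA integrity, was -0.15 to -0.01 in early and -0.26 to 0.10 in later hearts. The part of these shifts in the Eln, Mgp, Lum and Vcan values was not tested.

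**Figure D4:**
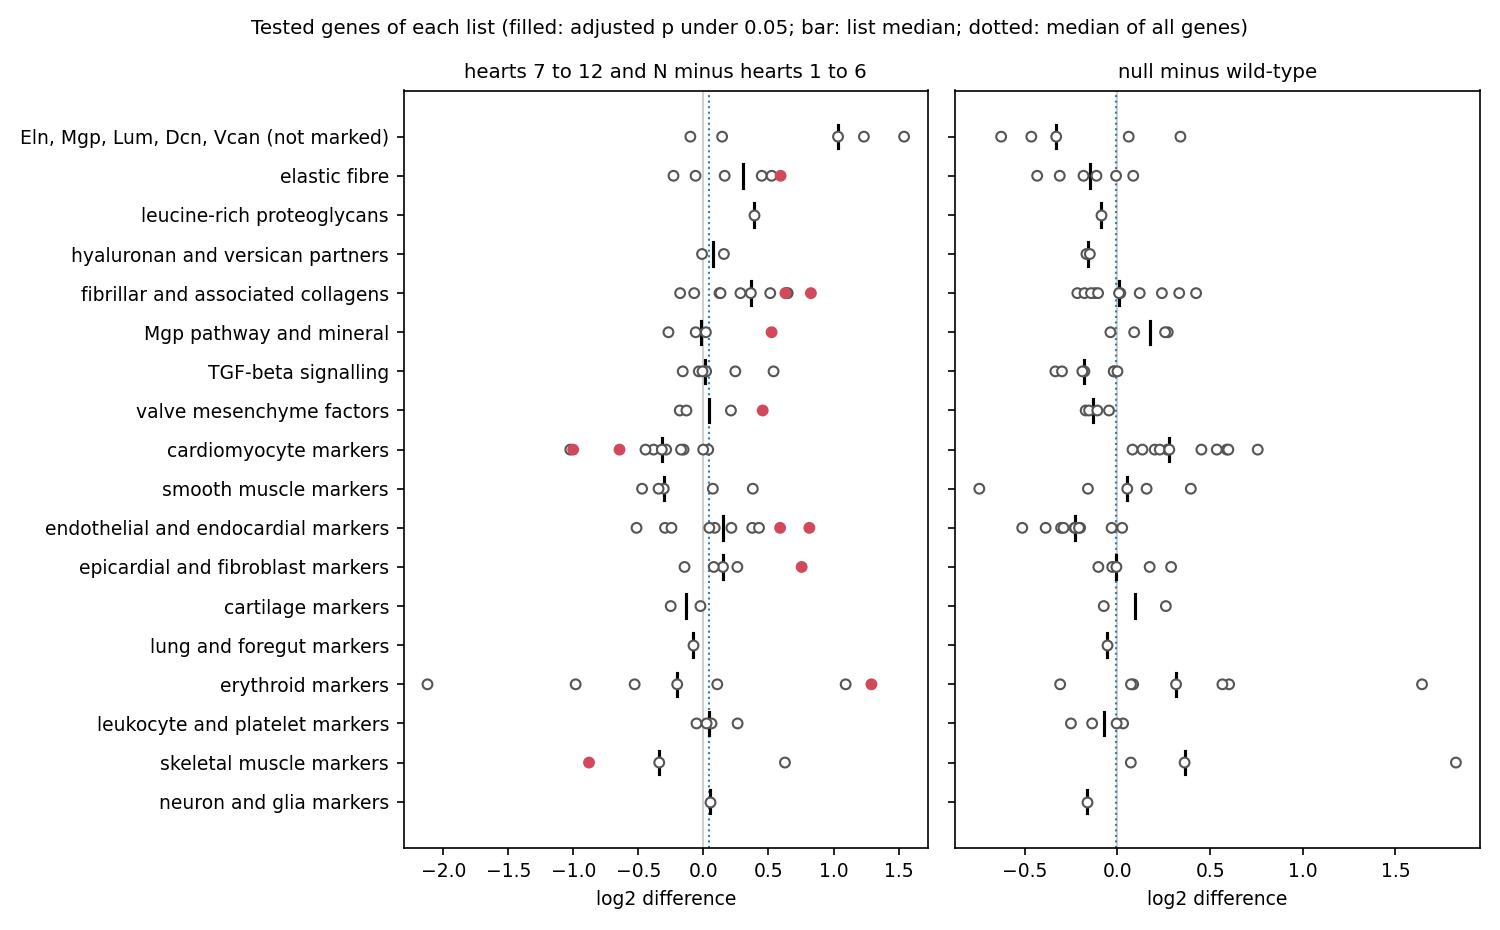
Log2 difference of each tested gene (1 circle, by its brightest probe set) in each gene list, between hearts 7 to 12 and N and hearts 1 to 6 (left) and between null and wild-type hearts (right); filled circles passed an adjusted p of 0.05, black bars are list medians and the dotted line is the median of all tested genes. On the left, filled circles lie above 0 in the elastic fibre, collagen, Mgp pathway, valve mesenchyme, endothelial, epicardial and erythroid lists. They lie below 0 in the heart muscle and skeletal muscle lists, and the other lists have none. On the right no circle is filled. The top row, the 5 matrix genes, is drawn without calls because each was chosen on at least 1 of these comparisons.

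Between null and wild-type hearts 0 genes of these lists were called, where 0% of the 2733 tested genes were called higher and 0% lower. The elastic fibre genes had 5 of 6 values below 0, with a median of -0.15, which turned to 0.02 without the mostly blank arrays. The TGF-beta genes had 6 of 7 below 0, with a median of -0.18 that was -0.075 under quantile scaling and -0.30 without the N hearts. The collagens had 5 of 11 below 0 (median 0.01). All genes had a median of -0.01. The genes with the smallest p in the elastic fibre and TGF-beta lists were Loxl1, an elastin cross-linking enzyme, at -0.43 ± 0.26 (SE), and Smad2 at -0.33 ± 0.16. Heart muscle markers had 11 of 11 values above 0 (median 0.28, and 0.09 with 9 of 11 under cyclic loess), and endothelial markers 9 of 10 below 0 (median -0.23). The summed B array endothelial markers were 16115 to 34811 in null and 21087 to 33505 in wild-type hearts. Their part in the Eln and Dcn values of null hearts was not tested.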

How the data were processed

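Each deposited number is an intensity, on a linear scale, 1 per probe set and array (6584 probe sets on A, 6595 on B, 55 controls on each). The software behind them is not given in the sources used here. They hold negative values (10.1% to 29.5% of an array), and on the 7 A and 9 B arrays without blanks the mean between the 2 and 98 percentiles was 1500, which points to a common scaling before deposit. Genes were named from the platform annotation, updated by gene ID through RefSeq (GRCm38.p6), which also gave the gene order.

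Here, blanks were left missing, values under the floor were raised to it, and log2 was taken. limma 3.58.1 (R 4.3.3) was fitted per table to 4494 probe sets (2771 A, 1723 B) with a variance trend, two-sided, with Benjamini-Hochberg adjustment over both tables and a threshold of 0.05. Fits were tested on simulated data. The number of arrays limits precision. The genes and lists were chosen with earlier results of these data known. Named genes were all 5 members, and from each list those called or among the 3 smallest p; likeness used the 3 highest r over at least 10 hearts. Alternatives changed floor, filter, scaling, trend, blank arrays, N hearts, single hearts and the range block.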

Additional observations from a re-analysis of the deposited data

Results flagged for a closer look

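Wild-type heart 9 stood apart from the other wild-type hearts on the Vcan probe set D45889_g_at. Its intensity was 10733, while hearts 2, 7 and N1 gave 7698, 7722 and 7554. Its gap to the next heart was 0.937 of the whole range of the 4 hearts. In the 25 groups examined, chance alone flags about 1 in 20, so a single flag is of the order that chance gives. On d28599_s_at, the other tested Vcan probe set, heart 9 (1512) lay between hearts 2 (1669) and N1 (860).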

How the results depend on the processing

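Of the 763 log2 differences of matrix probe sets under the alternatives, 717 kept the sign of the value reported, and 0 were called in the genotype, N or interaction comparisons. Between later-numbered and early hearts, the comparison that chose them, the 4 calls are a description. They were 2 to 4 when single hearts were left out. The 2 came without heterozygous heart 5 or 12, where only 3 matrix probe sets could be tested. Lum and the Vcan probe sets then had too few heterozygous values. The calls were 0 without the filter on dim probe sets, where 13069 probe sets were tested and 6 called. Without the N hearts the sign turned for Mgp null minus wild-type (-0.00032), heterozygous minus wild-type (-0.21) and null minus heterozygous (0.21), for Lum (-0.18) and Vcan d28599_s_at (0.042) null minus heterozygous, for the Eln (-0.029) and Dcn (-0.31) interaction, and for Dcn later minus early (-0.019). With the number range as a block it turned for Mgp null minus wild-type (-0.47) and heterozygous minus wild-type (-0.060) and for Lum null minus heterozygous (-0.017). Under quantile scaling it turned for Dcn heterozygous minus wild-type (0.15), Vcan D45889_g_at null minus heterozygous (-0.027) and Eln N minus 7 to 12 (0.037), under cyclic loess for the last (0.015), with a floor of 3 times the noise for Lum null minus heterozygous (-0.021), and without mostly blank arrays for Eln N minus 7 to 12 (0.094) and the Dcn interaction (-0.34). Leaving out single hearts gave ranges that crossed 0 for Mgp null minus wild-type (-0.38 to 0.57), heterozygous minus wild-type (-0.21 to 0.70), null minus heterozygous (-0.63 to 0.35), N minus 7 to 12 (-0.55 to 0.70) and interaction (-0.13 to 0.63), for Eln heterozygous minus wild-type (-0.32 to 0.089) and N minus 7 to 12 (-0.35 to 0.21), for Vcan null minus heterozygous (D45889_g_at -0.16 to 0.080, d28599_s_at -0.35 to 0.054), for Vcan d28599_s_at N minus 7 to 12 (-0.27 to 0.050), for Vcan D45889_g_at later minus early (-0.23 to 0.057), for Lum null minus heterozygous (-0.18 to 0.26) and for the Dcn interaction (-0.31 to 0.58). The cause was not tested. The alternatives for list medians were chosen after seeing the data. No paired analysis was possible because the genotypes share no replicate numbers. Signal over background limits Lum, Vcan d28599_s_at and the 3 untested probe sets.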
